A study of Mus musculus with 59 samples.

Results

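The NF-kB genes described here are the inhibitors Nfkbia, Nfkbib, Nfkbie and Tnfaip3, the transcription factor genes Rela, Relb and Nfkb2, and the cytokine genes Tnf and Ltb. They were chosen as the probe sets of an Affymetrix mouse array whose annotation gives exactly 1 gene symbol, where that symbol is 1 of 10 fixed names. The rule found 9 genes on 17 probe sets, of 18193 genes in all; Nfkb1 was also on the list and is not analysed here. B6C3F1 mice, a hybrid strain, received baclofen, an agonist of the GABA-B receptor, or the vehicle, 0.5% methylcellulose, as 1 dose or as 5 daily doses, and tissue was taken 2 hours after the last dose. The labels used here state no baclofen dose. In liver (left lateral lobe) there were 4 baclofen and 3 vehicle samples at 1 day, and 8 baclofen and 4 vehicle samples at 5 days. In bone marrow (right humerus) and in spleen there were 4 baclofen and 4 vehicle samples at 1 day, and 8 baclofen and 4 vehicle samples at 5 days. The labels do not say that each replicate is a separate animal, so p-values measure only the spread between these samples.

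NF-kB is a family of dimeric transcription factors that drive inflammatory, survival and immune genes. In resting cells the inhibitor proteins encoded by Nfkbia (IkB alpha), Nfkbib (IkB beta) and Nfkbie (IkB epsilon) hold the dimers in the cytoplasm, and stimulation of receptors for tumour necrosis factor, interleukin 1 or microbial products leads to their breakdown through the IkB kinase complex. Nfkbia and Tnfaip3 (A20, a ubiquitin-editing enzyme) are themselves NF-kB targets and close negative feedback loops. Relb and Nfkb2 serve the non-canonical branch, which lymphotoxin beta (Ltb) engages in spleen and other lymphoid organs. In RefSeq GRCm38.p6 Nfkbia lies at chr12:55489409-55492647, Nfkbib at chr7:28758251-28766644, Nfkbie at chr17:45555700-45563169 and Tnfaip3 at chr10:19000910-19015410. Rela lies at chr19:5637442-5648134, Nfkb2 at chr19:46300994-46312400 and Relb at chr7:19606217-19629438. The cytokine genes are neighbours, with Ltb at chr17:35194507-35196305 and Tnf at chr17:35199367-35202007.

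Promoter windows of 3 genes are shown because these are the members that passed the test below. RefSeq (GRCm38.p6) held windows for 8 of the 9 measured members, all but Relb. Each window runs over the 250 bases before an annotated transcript start, 5′ to 3′ on the gene's strand, and capitals mark a match to the kB consensus on either strand.
Nfkbia, chr12:55492648-55492897, minus strand: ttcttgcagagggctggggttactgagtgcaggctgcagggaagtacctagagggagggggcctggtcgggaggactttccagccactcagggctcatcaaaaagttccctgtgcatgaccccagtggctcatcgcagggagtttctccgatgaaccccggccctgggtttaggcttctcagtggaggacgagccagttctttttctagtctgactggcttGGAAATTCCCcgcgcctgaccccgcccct
Tnfaip3, chr10:19015411-19015660, minus strand: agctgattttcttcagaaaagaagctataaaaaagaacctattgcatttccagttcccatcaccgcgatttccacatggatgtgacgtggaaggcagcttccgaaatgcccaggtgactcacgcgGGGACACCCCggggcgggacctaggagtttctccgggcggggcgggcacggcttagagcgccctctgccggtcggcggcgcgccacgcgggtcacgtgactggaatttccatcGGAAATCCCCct
Ltb, chr17:35194257-35194506, plus strand: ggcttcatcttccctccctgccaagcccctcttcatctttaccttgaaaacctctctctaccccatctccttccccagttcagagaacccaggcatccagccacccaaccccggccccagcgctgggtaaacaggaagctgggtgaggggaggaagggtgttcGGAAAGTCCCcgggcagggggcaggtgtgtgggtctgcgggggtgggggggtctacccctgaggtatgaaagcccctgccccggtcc

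The match lay between bases -29 and -20 from the start in Nfkbia and between -87 and -78 in Ltb, and the Tnfaip3 window held 1 at -125 to -116 and 1 at -12 to -3. Windows of Nfkbie and Nfkb2 also held the consensus, and those of Nfkbib, Rela and Tnf did not hold it in these letters. Of 32851 promoter windows of this length, 3.9% held it. The letters TGTTCT or AGAACA, a glucocorticoid receptor half-site, stood in 16.1% of all windows and, among the members, only in the window of a second Tnfaip3 transcript start. A match is a description of these letters and says nothing of binding in these tissues.

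The intensities had been through RMA and are linear, and log2 values were tested. A gene is represented by the probe set with the highest mean in the tissue and was tested if that mean reached the 40th percentile of genes there, which left 10916 genes per tissue. A gene "rose" or "fell" where its p from limma, adjusted by Benjamini and Hochberg over those genes, was under 0.05. All 9 genes were tested in bone marrow and spleen. In liver 5 were tested (Nfkbia, Nfkbib, Nfkb2, Rela and Tnf), because Nfkbie, Relb, Tnfaip3 and Ltb were too dim there. Array medians lay between 34.7 and 36.8 in liver, 72.6 and 76.1 in marrow and 74.3 and 77.6 in spleen, so the tissues appear to have been normalized apart.

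The tissue labels held against their markers. Averaged on the log2 scale, 10 hepatocyte genes stood at 14.5 to 14.6 in every liver, against 5.24 to 5.84 in the marrow samples. Of the 20 spleens, 3 held hepatocyte transcripts, namely baclofen replicate 5 at 5 days and vehicle replicates 1 and 3 at 5 days, and 1 marrow sample, baclofen replicate 3 at 1 day, held skeletal muscle transcripts. Results from those groups that passed, and the other members there, were also computed without these samples. The title and treatment field of a sample set its group here, and among 7 livers at 1 day the source field contradicts them for 5.

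In vehicle samples the intensity of Nfkbia ran from 5115 to 8050.4 with a median of 6730 in 8 spleens, from 5240.05 to 6391 with a median of 5559 in 8 marrows, and from 1373 to 2695.5 with a median of 1702 in 7 livers. Liver lay below both other tissues without overlap, while marrow and spleen overlapped; after joint quantile normalization the ranges were 5984 to 8865 in spleen, 4496 to 5456 in marrow and 1625 to 2831 in liver, and none overlapped. Ltb, which encodes the lymphotoxin beta subunit, had vehicle medians of 6354 in spleen, 2338 in marrow and 29.8 in liver, in the same order without overlap between neighbours. Nfkbie had medians of 1314 in spleen, 376 in marrow and 38.2 in liver, Tnfaip3 of 643, 342 and 29.5, and Relb of 525, 104 and 25.5. Rela, the transactivating p65 subunit, differed less, with medians of 1333 in spleen, 1187 in marrow and 803 in liver. After joint quantile normalization the Rela medians were 1339, 918 and 1031, so marrow and liver changed order. Tnf was dim in every tissue, with medians of 108, 112 and 55.4. The joint normalization gave Tnf medians of 83.3, 88.8 and 92.8, so liver was then no longer the lowest. These levels stand side by side across tissues that were normalized apart, were not tested, and compare the same probe set between tissues, not one probe set with another as molar amounts.

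Nfkbia rose in liver after both schedules. In the livers at 1 day its intensity was 2994, 3025, 2488 and 3003 after baclofen, against 1394, 1702 and 2018 after vehicle. All 4 baclofen livers lay above all 3 vehicle livers. The log2 difference was 0.77 ± 0.16 (SE; 1.70-fold, limma adjusted p = 0.0114). At 5 days the 8 baclofen livers ran from 2789 to 3193 with a median of 2918, against 1557, 1373, 1798 and 2695.5 in the vehicle livers. The groups again did not overlap, although the highest vehicle liver, replicate 4, came close to the lowest baclofen liver. The difference at 5 days was 0.72 ± 0.13 (1.65-fold, limma adjusted p = 0.00193). Nfkbia was the 1 gene of the 5 tested that passed at each time, and over all tested genes 1.58% rose and 1.09% fell at 1 day and 4.86% rose and 5.75% fell at 5 days. Groups did not overlap, with baclofen above, in 6.2% of genes at 1 day and 2.59% at 5 days, and with baclofen below in 6.34% and 2.89%. The call at 1 day was lost without vehicle replicate 1 (0.63, limma adjusted p = 0.0861) or vehicle replicate 2 (0.77, limma adjusted p = 0.0521), and under the treatments of the source field the difference was -0.12 (limma adjusted p = 1).

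Nfkbia also rose in bone marrow after both schedules. At 1 day its intensity was 8272, 8241, 7673 and 8347 in baclofen marrows, against 5574, 6391, 5518.5 and 5543 in vehicle marrows. The lowest baclofen value stood well above the highest vehicle value. The difference was 0.50 ± 0.07 (1.41-fold, limma adjusted p = 0.000615), and 0.53 without baclofen replicate 3, the sample with muscle transcripts. At 5 days the 8 baclofen marrows ran from 6659 to 8169 with a median of 7058, against 5877, 5240.05, 5542 and 6074 in vehicle marrows, and the groups did not overlap. The difference was 0.34 ± 0.06 (1.27-fold, limma adjusted p = 0.00424). Over all genes 3.11% rose at 1 day and 6.15% at 5 days, and 5.57% and 3.53% had all baclofen values above all vehicle values. Both marrow calls held in every fit that left out 1 sample.

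In spleen Nfkbia was already bright and passed the test at 1 day alone. The values at 1 day were 9091, 8039, 7880.1 and 8613 in baclofen spleens, against 5115, 6599, 8050.4 and 6831 in vehicle spleens. The groups overlapped, with 2 of 4 baclofen spleens above every vehicle spleen; no member's groups stood apart there, against 8.27% of genes with baclofen above and 8.9% with baclofen below. The difference was 0.35 ± 0.11 (1.28-fold, limma adjusted p = 0.0355; 7.64% of genes rose and 7.91% fell). Leaving out vehicle replicate 1, the lowest sample, gave 0.23 (limma adjusted p = 0.130), and the call was lost in 6 of 8 fits that left out 1 sample and in the spleen fit without the 3 samples of 5 days that held hepatocyte transcripts (limma adjusted p = 0.0509). At 5 days the 8 baclofen spleens ran from 7993 to 9892 with a median of 8575, against 6629, 6159, 7659 and 7684 in vehicle spleens. All baclofen values lay above all vehicle values, which was so for 3.47% of genes (1.61% lay below), but the difference of 0.33 ± 0.10 did not pass (limma adjusted p = 0.0570), while 3.05% of genes rose and 1.38% fell. It passed without vehicle replicate 4 (0.37, limma adjusted p = 0.0491) or baclofen replicate 7 (0.35, limma adjusted p = 0.0438). The difference was 0.36 without the 3 spleens that held hepatocyte transcripts (limma adjusted p = 0.142). The mean of 9 T cell genes in spleen at 1 day was 9.42 ± 0.20 log2 in the baclofen group and 9.02 ± 0.43 in the vehicle group (SD, n = 4 each), and that of 11 mature neutrophil genes was 8.96 ± 0.14 and 10.02 ± 0.68. That of 11 B cell genes was 9.94 ± 0.04 and 9.69 ± 0.35, and that of 9 erythroid genes 10.25 ± 0.20 and 10.71 ± 0.73. The mean of 7 natural killer and cytotoxic cell genes ran from 8.102 to 8.336 and from 8.344 to 8.673, without overlap. The part of these cell type markers in the result was not tested, and in whole tissue fewer cells of a type and less RNA per cell cannot be told apart.

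**Figure D1:**
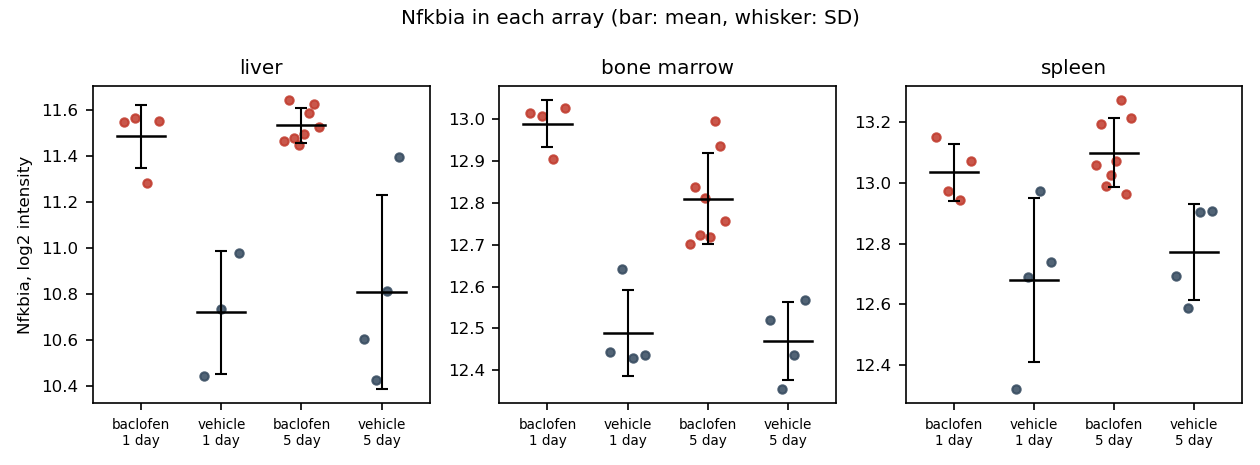
Nfkbia log2 intensity (y axis, its own scale in each panel, not starting at 0) in every array of liver, bone marrow and spleen, by treatment and day (x axis), with baclofen in red and vehicle in dark blue; bars are group means and whiskers SD. Baclofen arrays lie above all vehicle arrays of their day except in spleen at 1 day, where the groups overlap.

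Nfkbia has 5 probe sets, and each was higher after baclofen in each of the 6 comparisons, with log2 differences from 0.18 to 1.01. When every probe set was tested on its own, 5 of 5 passed in liver at 1 day, 4 of 5 in liver at 5 days, 5 of 5 in marrow at 1 day, 4 of 5 in marrow at 5 days, 3 of 5 in spleen at 1 day and 0 of 5 in spleen at 5 days. The brightest probe set, which stands for the gene, gave smaller differences than 3 of the other 4 in each comparison.

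**Figure D2:**
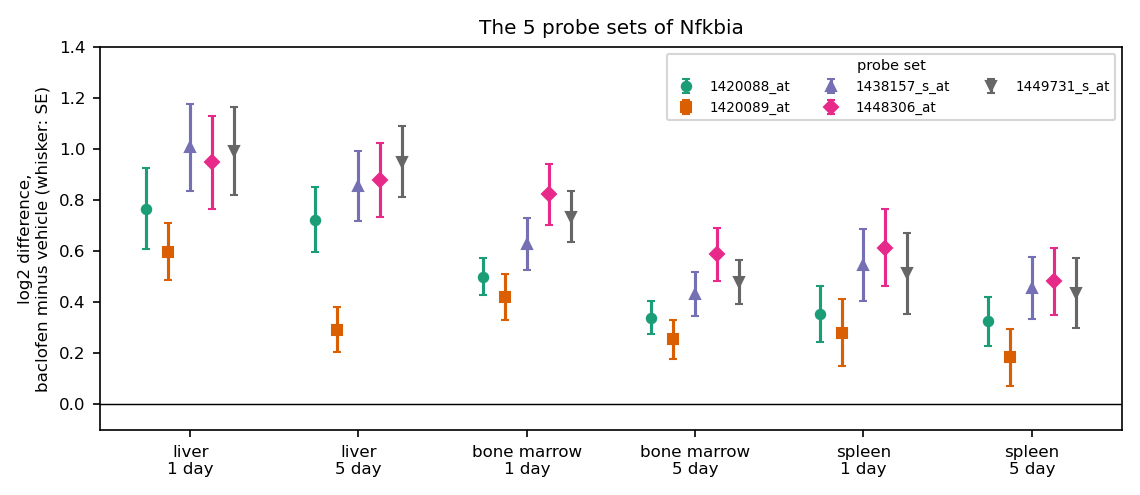
Log2 difference, baclofen minus vehicle (y axis), for each of the 5 Nfkbia probe sets (symbols) in the 6 comparisons of tissue and day (x axis); whiskers are SE and the line marks 0. Every point lies above 0, between 0.18 and 1.01, and liver at 1 day holds the highest.

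Among the other inhibitors, Nfkbib did not pass in any of the 6 comparisons by its bright probe set, with log2 differences between -0.34 and 0.12. Its largest was in liver at 5 days, where 8 baclofen livers ran from 333 to 382 and the vehicle livers had 349.6, 668, 486 and 358. Vehicle replicates 2 and 3 were high and the other vehicle livers lay within the baclofen range (-0.34 ± 0.12, limma adjusted p = 0.0719). It passed there without vehicle replicate 1 (-0.46, limma adjusted p = 0.0220) or vehicle replicate 4 (-0.45, limma adjusted p = 0.0193). In liver at 1 day the Nfkbib values were 375 to 416 after baclofen and 359 to 371 after vehicle. They did not overlap, as for 6.2% of genes with baclofen above. A second, dim Nfkbib probe set rose in spleen at 1 day by 0.72 ± 0.17 (limma adjusted p = 0.0144 among all probe sets), against -0.13 for the bright one, and the mean of both gave 0.29 (limma adjusted p = 0.0165), so the direction of Nfkbib there is uncertain. In marrow at 1 day the mean of both gave 0.22 (limma adjusted p = 0.0490).

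Nfkbie differences lay between -0.06 and 0.11 in marrow and spleen, and none passed. In spleen at 1 day it had 1033, 1129, 1279.85 and 1207 in baclofen samples, against 711, 989, 1485 and 1268 in vehicle samples, so that the vehicle group spanned the baclofen group. In liver it was too dim for the test. There 8 baclofen livers at 5 days ran from 21.5 to 30.1 and the 4 vehicle livers from 31.3 to 41.7. The groups did not overlap, as for 2.89% of tested genes with baclofen below. At 1 day the livers overlapped, with 19.7 to 31.1 after baclofen and 22.95 to 47.0 after vehicle. With no brightness filter the Nfkbie difference at 5 days was -0.52 ± 0.15 and passed narrowly (limma adjusted p = 0.0489). At 1 day it was -0.39 ± 0.19 and did not pass (limma adjusted p = 0.503). The other of its 2 probe sets gave -0.30 in liver at 5 days and -0.20 at 1 day. Neither probe set passed in liver when every probe set was tested on its own.

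Tnfaip3 rose in spleen at 1 day. Its values there were 895, 752, 734 and 818 in baclofen spleens, against 448, 612.5, 746 and 627 in vehicle spleens, and 3 of 4 baclofen spleens lay above every vehicle spleen. The difference was 0.41 ± 0.12 (1.33-fold, limma adjusted p = 0.0241). This is the brighter of 2 probe sets; the other gave 0.27 ± 0.11 and did not pass (limma adjusted p = 0.128 among all probe sets). The call was lost without vehicle replicate 1 (0.27, limma adjusted p = 0.0826), baclofen replicate 1 (0.36, limma adjusted p = 0.0844) or baclofen replicate 4 (0.40, limma adjusted p = 0.0610). The part of the cell type markers of these spleens in the Tnfaip3 result was not tested. In the other tested comparisons the differences were all above 0 and did not pass: 0.23 ± 0.10 in spleen at 5 days (limma adjusted p = 0.161), 0.13 ± 0.10 in marrow at 1 day and 0.19 ± 0.09 in marrow at 5 days (limma adjusted p = 0.160). In marrow at 5 days it had a median of 397 in 8 baclofen samples, with a range of 327 to 462, against 321, 334, 347 and 383 in vehicle samples, and the groups overlapped.

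None of the factor genes passed in a comparison of baclofen with vehicle. Rela had 853, 879, 882.5 and 856 in baclofen livers at 1 day, against 789, 721 and 821 in vehicle livers. The groups did not overlap, as for 6.2% of genes with baclofen above, and the difference was 0.16 ± 0.08 (limma adjusted p = 0.411). At 5 days the order turned, with a median of 762 and a range of 651 to 818 in 8 baclofen livers, against 803, 951, 837 and 776 in vehicle livers (-0.17 ± 0.06, limma adjusted p = 0.0954). In marrow and spleen the Rela differences lay between -0.08 and 0.06. Nfkb2, whose p100 product is processed to p52, differed by -0.06 to 0.03 over all 6 comparisons by its brightest probe set in each tissue. The dimmer probe set of each tissue gave -0.41 ± 0.13 in liver at 5 days (limma adjusted p = 0.0741 among all probe sets), and -0.12 to 0.09 elsewhere.

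Relb, the partner of p52, had 568, 588, 648 and 597 in baclofen spleens at 1 day, against 344, 425.5, 619 and 511 in vehicle spleens. Vehicle replicate 3 lay within the baclofen range and the other 3 lay below it. The difference of 0.37 ± 0.13 did not pass (limma adjusted p = 0.0627) and passed without vehicle replicate 3 (0.51, limma adjusted p = 0.00603). The part of the cell type markers of these spleens in the Relb values was not tested. At 5 days in spleen the difference was 0.08 ± 0.11. In marrow it was 0.20 ± 0.11 at 1 day, where baclofen samples had 126, 123, 98.2 and 122 and vehicle samples 97.5, 101, 106 and 103; without the low baclofen replicate 3, which holds muscle transcripts, it was 0.28 (limma adjusted p = 0.0915).

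Ltb fell in bone marrow after both schedules. At 1 day it had 1071, 1324, 1759 and 1203 in baclofen marrows, against 2322, 2149, 2589 and 2260.25 in vehicle marrows. All baclofen values lay below all vehicle values. The log2 difference was -0.82 ± 0.13 (1.77-fold lower, limma adjusted p = 0.00118), and -0.96 without baclofen replicate 3, which was the highest baclofen sample. At 5 days the 8 baclofen marrows ran from 1531 to 2189.89 with a median of 1646, against 2572, 2353, 2238 and 2398 in vehicle marrows, again without overlap. The difference was -0.46 ± 0.11 (1.38-fold lower, limma adjusted p = 0.0157), and it no longer passed without vehicle replicate 1 (-0.43, limma adjusted p = 0.0659). Over all genes 4.25% fell at 1 day and 3.93% at 5 days, and all baclofen values lay below all vehicle values in 7.69% and 1.72%.

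Ltb is known to be made by lymphocytes. In marrow at 1 day 0 of 11 tested B cell genes, 0 of 5 tested T cell genes and 0 of 11 mature neutrophil genes passed (limma), and at 5 days 0 of 11, 0 of 5 and 1 of 11 passed, the 1 being Lcn2, lower after baclofen. At 5 days 6 of 8 tested erythroid genes rose, as did 1 of 9 monocyte and macrophage genes (Cd5l) and 1 of 4 dendritic cell genes (Flt3), while 0 genes of these lists passed at 1 day. Of all tested genes in marrow 6.15% rose and 3.93% fell at 5 days, and 3.11% rose and 4.25% fell at 1 day. Single genes with all baclofen values above all vehicle values made up 3.53% at 5 days. The mean of 9 erythroid genes at 5 days was 11.48 to 11.78 log2 in baclofen marrows and 11.01 to 11.47 in vehicle marrows, and that of 11 monocyte and macrophage genes was 9.78 to 10.21 and 9.602 to 9.763, both without overlap. At 1 day both lists overlapped, with means of 11.52 ± 0.12 and 11.43 ± 0.11 for erythroid genes and 9.82 ± 0.18 and 9.56 ± 0.22 for monocyte and macrophage genes. The mean of 11 B cell genes was 9.30 ± 0.48 log2 in baclofen marrows and 9.11 ± 0.11 in vehicle marrows at 1 day (SD, n = 4 each). The mean of 9 T cell genes was 7.02 ± 0.06 and 7.02 ± 0.09. The mean of 11 mature neutrophil genes was 13.2 ± 0.17 in baclofen marrows, with a range of 13.04 to 13.45, and 13.4 ± 0.03 in vehicle marrows, with a range of 13.33 to 13.39. The means at 5 days were 9.499 ± 0.55 in baclofen and 9.31 ± 0.27 in vehicle marrows for B cell genes, 7.16 ± 0.14 and 7.06 ± 0.07 for T cell genes, and 13.17 ± 0.13 and 13.35 ± 0.07 for mature neutrophil genes (SD, n = 8 and 4). Across the 20 marrow arrays, as deviations from group means, Ltb went with the mature neutrophil mean (r = 0.86) and against the B cell mean (r = -0.78), while r was 0.12 with the T cell mean, 0.08 with the monocyte and macrophage mean, -0.50 with the erythroid mean and 0.64 with the skeletal muscle mean. These correlations describe arrays that share 1 normalization, and the part of these markers in the fall of Ltb, or in the rise of Nfkbia in the same marrows, was not tested. In spleen Ltb was lower after baclofen without passing, by -0.22 ± 0.14 at 1 day and -0.18 ± 0.13 at 5 days. In liver Ltb was too dim for the test. It had 21.97 to 26.7 in baclofen livers and 29.3 to 31.7 in vehicle livers at 1 day. Those groups did not overlap, as for 6.34% of tested genes with baclofen below. The groups overlapped at 5 days, with 23.0 to 29.5 after baclofen and 26.4 to 32.5 after vehicle. With no brightness filter the differences were -0.32 ± 0.09 and -0.17 ± 0.07, and neither passed (limma adjusted p = 0.0723 and 0.170).

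**Figure D3:**
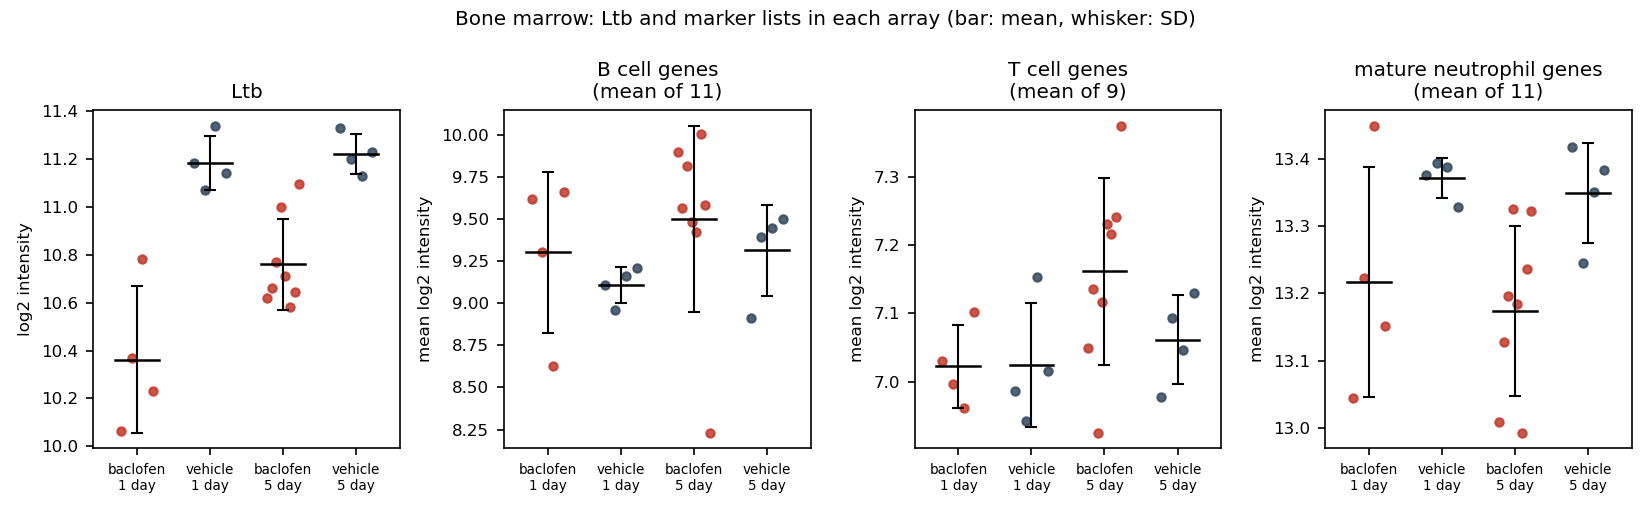
Bone marrow arrays by treatment and day (x axis): Ltb log2 intensity and the mean log2 intensity of the B cell, T cell and mature neutrophil gene lists (y axes, not starting at 0), with baclofen in red and vehicle in dark blue; bars are group means and whiskers SD. Ltb is lower in every baclofen array than in every vehicle array of its day, and the 3 lists drawn overlap between treatments; the erythroid and the monocyte and macrophage lists, not drawn, did not overlap at 5 days.

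Tnf, the gene of tumour necrosis factor, did not pass in any comparison. In marrow at 1 day it had 95.02, 84.8, 99.6 and 106 in baclofen samples, against 114, 107, 106.4 and 112 in vehicle samples. The highest baclofen value was just under the lowest vehicle value, so the groups did not overlap (-0.19 ± 0.08, limma adjusted p = 0.152). All baclofen values lay below all vehicle values there in 7.69% of genes. At 5 days the marrow difference was -0.18 ± 0.07 (limma adjusted p = 0.106), and it passed without baclofen replicate 8 (-0.20, limma adjusted p = 0.0490). In liver and spleen the differences lay between -0.13 and 0.09.

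Over the 6 comparisons 1 of 5 tested genes passed in liver at each time, where 2.67% of all genes passed at 1 day and 10.6% at 5 days. In marrow 2 of 9 passed at each time, against 7.36% and 10.1% of all genes. In spleen 2 of 9 passed at 1 day and 0 of 9 at 5 days (2 at an unadjusted p under 0.05; 1, Nfkbia, with limma's trend and robust options), against 15.5% and 4.43%. All of these calls were of Nfkbia, Tnfaip3 or Ltb. Without the samples that hold transcripts of another tissue, no other member passed in marrow at 1 day or spleen at 5 days. In those marrows Tnfaip3 then differed by 0.20, Nfkbie by 0.14, Rela by -0.10 and Tnf by -0.21, and in those spleens Tnfaip3 differed by 0.33, Relb by 0.19, Nfkbie by 0.16, Rela by 0.10, Tnf by -0.11 and Ltb by -0.13 (limma adjusted p from 0.126 to 0.684). The median log2 difference of the tested members ran from -0.13 in liver at 5 days to 0.12 in liver at 1 day, while the median of all genes ran from -0.03 to 0.00.

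**Figure D4:**
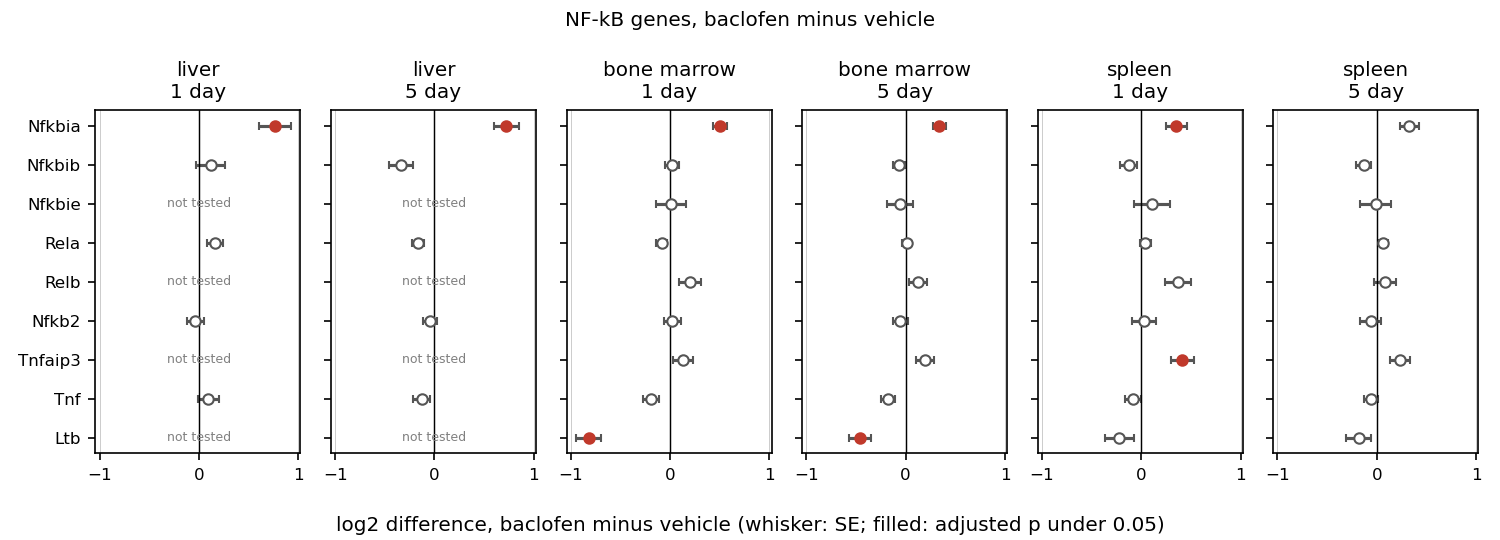
Log2 difference, baclofen minus vehicle (x axis), for each of the 9 NF-kB genes (rows) in the 6 comparisons of tissue and day (panels); whiskers are SE and filled points have an adjusted p under 0.05. Nfkbia is right of 0 in each panel and Ltb left of 0 in marrow and spleen, and 4 genes were too dim to be tested in liver.

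No member changed its response between 1 and 5 days by a test of that difference itself. In limma 0 of 5 members passed in liver (2 at an unadjusted p under 0.05, Nfkbib and Rela), 0 of 9 in marrow (1, Ltb) and 0 of 9 in spleen (0), while over all genes 0.0183% passed in liver and none did in marrow or spleen. The fall of Ltb in marrow was 0.36 ± 0.17 smaller on the log2 scale at 5 days than at 1 day (limma adjusted p = 0.942). The Nfkbia response differed between the 2 times by -0.04 ± 0.21 in liver, -0.16 ± 0.09 in marrow and -0.03 ± 0.15 in spleen. Vehicle samples at 5 days and at 1 day did not differ past the threshold for any member, as for all genes tested (limma; at an unadjusted p under 0.05 there were 1 member in liver, Tnf, 1 in marrow, Nfkbib, and 0 in spleen).

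Between tissues, the response of 1 member differed past the threshold (limma). These fits treated all arrays as independent, with an estimate of spread shared by the tissues. Whether tissues came from the same mice was not taken into account. At 1 and 5 days 0 of 5 members passed for liver against marrow (2.28% and 7.83% of all genes; 2 and 3 members at an unadjusted p under 0.05), 0 and 1 of 5 for liver against spleen (6.51% and 11.7%; 1 and 2 members), and 0 and 0 of 9 for marrow against spleen (1.91% and 4.48%; 1 and 0 members). The Rela response at 5 days was lower in liver than in spleen by 0.23 ± 0.07 on the log2 scale (limma adjusted p = 0.0271), from -0.17 in liver and 0.06 in spleen. Of 11 alternatives of the closing section, this call was lost in 3 (highest limma adjusted p = 0.139). It was lost without liver vehicle replicate 2 (-0.17, limma adjusted p = 0.108), the highest vehicle liver, or spleen vehicle replicate 2 (-0.19, limma adjusted p = 0.103), and with the 3′ minus 5′ signal of control probe sets as a covariate (-0.20, limma adjusted p = 0.0754). That measure of RNA integrity was 0.438 ± 0.038 log2 in the baclofen livers and 0.501 ± 0.062 in the vehicle livers at 5 days (SD, n = 8 and 4), and 0.394 ± 0.101 and 0.344 ± 0.021 in the spleens. The Nfkbia response in liver exceeded that in spleen by 0.41 ± 0.17 at 1 day (limma adjusted p = 0.145) and 0.40 ± 0.14 at 5 days (limma adjusted p = 0.0586), and that in marrow by 0.27 ± 0.17 and 0.38 ± 0.14 (limma adjusted p = 0.561 and 0.0874), none of which passed. The Ltb response in marrow was lower than in spleen by 0.60 ± 0.18 at 1 day, just short of the threshold (limma adjusted p = 0.0546). Under several alternatives of the closing section 1 member passed in this comparison, lower in marrow, so the result depends on the processing.

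Most pairs of members were correlated across the spleens. Over the deviations from group means in 20 spleens, 26 of 36 pairs of members had r over 0.5, with a median of 0.60 and a highest value of 0.93 for Nfkb2 and Nfkbie. The median r was -0.05 in 20 marrows and -0.01 in 19 livers, each with 3 of 36 pairs over 0.5. Spleen vehicle replicate 1 at 1 day had the lowest value of its group for Nfkbia (5115), Relb (344), Tnfaip3 (448), Nfkbie (711) and Ltb (4377). The same sample had the lowest mean of 20 spleens for B cell genes (9.21 log2) and T cell genes (8.57), and the highest for mature neutrophil genes (10.6) and erythroid genes (11.4). Over the 20 spleens the deviations of Nfkbia had r = 0.76 with the B cell mean and -0.66 with the erythroid mean, and those of Ltb had r = 0.81 with the T cell mean. Those of Tnfaip3 had r = 0.72 with the B cell, 0.60 with the T cell and -0.77 with the erythroid mean. For Relb these were 0.88, 0.74 and -0.64. The pairs share arrays and their cell makeup, and these values are descriptions.

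**Figure D5:**
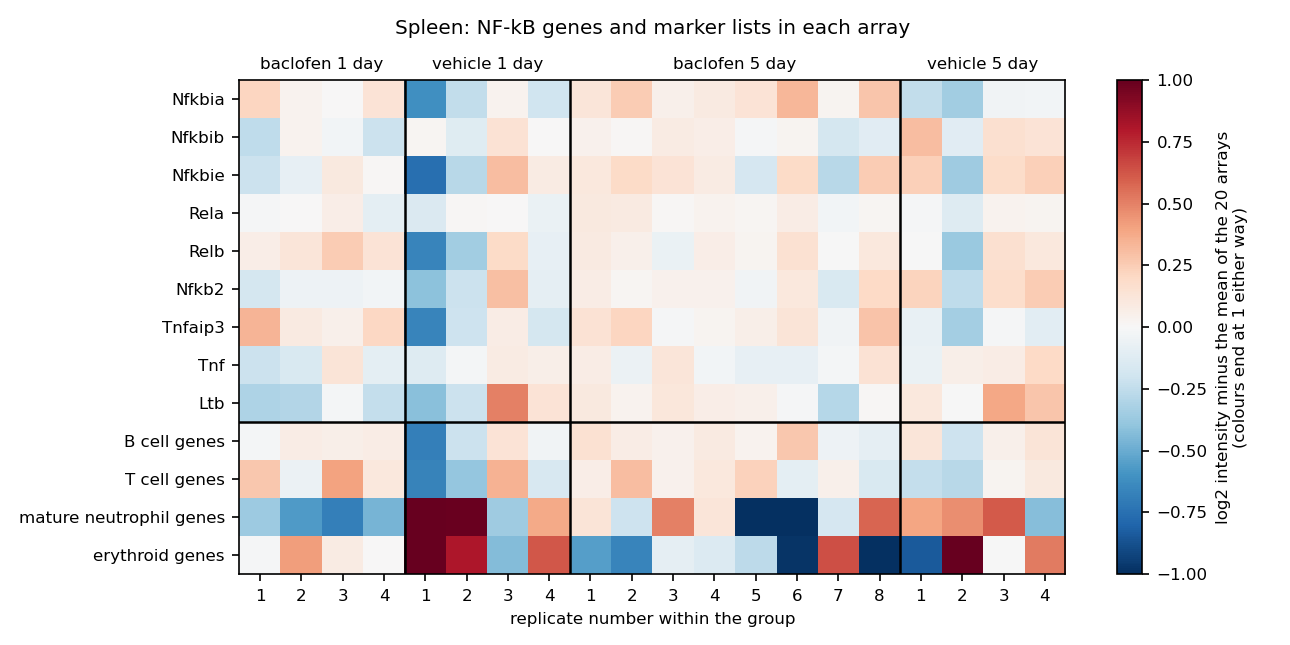
Log2 intensity in each of the 20 spleen arrays (columns, grouped by treatment and day, numbered by replicate) minus the mean of the 20 arrays, for the 9 NF-kB genes (upper rows) and 4 marker lists (lower rows); red is higher and blue lower, and colours end at 1 either way. Vehicle replicate 1 at 1 day is blue for most NF-kB genes and for B and T cell genes, and red for neutrophil and erythroid genes.

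The genes whose log2 values were most like those of Nfkbia over all arrays of a tissue were Ip6k2, Per1 and Map2k6 in 19 livers (Pearson r = 0.92, 0.91 and 0.91), Dusp1, Cirbp and Per1 in 20 marrows (0.95, 0.94 and 0.94), and Icosl, Btg1 and Jade2 in 20 spleens (0.96, 0.96 and 0.95). Those most like Ltb were Zbtb7b, Zdhhc18 and Msl1 in marrow (0.97, 0.96 and 0.96), Zbtb18, Gimap7 and Ier5 in spleen (0.95, 0.94 and 0.92), and Lzts2, Rpusd4 and Thap3 in liver (0.79, 0.78 and 0.78). These are the highest of many correlations over arrays that share the treatments, and they are given as a description.

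Of the receptors and ligands that feed NF-kB, a list of 18 genes, Tnfrsf1b, the second receptor for tumour necrosis factor, rose most. It was 1.502 ± 0.16 higher on the log2 scale in baclofen livers at 1 day and 1.09 ± 0.13 at 5 days (limma adjusted p = 4.25e-05 and 4.16e-05), while the main receptor gene Tnfrsf1a fell by 0.52 ± 0.10 in liver at 5 days (limma adjusted p = 0.00376). In liver 1 rose and 0 fell of 9 tested at 1 day, and 1 rose and 2 fell at 5 days. In marrow 0 rose and 1 fell of 15 at 1 day, and 0 rose and 3 fell at 5 days, among them Il1b, the interleukin 1 beta gene (-0.99 ± 0.26, limma adjusted p = 0.0236). In spleen 2 rose and 2 fell of 14 at 1 day. Tlr4, the endotoxin receptor, fell there by 0.95 ± 0.17 and Il1b by 1.21 ± 0.32 (limma adjusted p = 0.00122 and 0.0170). In those spleens 3 of 10 tested mature neutrophil genes also fell (Mmp9, Cxcr2 and Csf3r), and their part in this result was not tested. At 5 days in spleen 1 rose, Il1r1 (0.26 ± 0.06), and 0 fell. Of all genes 2.67% and 10.6% passed in liver at 1 and 5 days, 7.36% and 10.1% in marrow, and 15.5% and 4.43% in spleen. The Il1b calls were lost without marrow vehicle replicate 2 or 3 at 5 days (limma adjusted p = 0.0811 and 0.103) and without spleen vehicle replicate 1 at 1 day (limma adjusted p = 0.0512). The Il1r1 call in spleen at 5 days was lost without vehicle replicate 1 or 2 (limma adjusted p = 0.0711 and 0.105).

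Among 25 measured genes of the IkB kinases and upstream adaptors, Birc3, the ubiquitin ligase cIAP2 and itself a known NF-kB target, rose in 4 comparisons. It was higher by 0.57 ± 0.08 in marrow at 1 day and 0.39 ± 0.07 at 5 days, and by 0.77 ± 0.12 in spleen at 1 day and 0.47 ± 0.10 at 5 days (limma adjusted p from 0.00061 to 0.0146). The last was lost without spleen vehicle replicate 2 (0.39, limma adjusted p = 0.0871) and without the spleens with hepatocyte transcripts (0.48, limma adjusted p = 0.0808). Of all genes 2.67% and 10.6% passed in liver at 1 and 5 days, 7.36% and 10.1% in marrow, and 15.5% and 4.43% in spleen. In marrow 4 rose and 3 fell of 25 on this list at 1 day, and 3 rose and 1 fell at 5 days. In spleen 7 rose and 0 fell at 1 day, among them Traf6, an adaptor of the Toll-like receptor pathway (0.44 ± 0.09), and 1 rose and 0 fell at 5 days. Ikbkg, the regulatory subunit NEMO, also rose by its brightest probe set in marrow at both times and in spleen at 1 day (0.18 to 0.35), but the mean of its probe sets gave 0.02, -0.01 and -0.12, so its direction is uncertain. In liver 0 of 23 passed at 1 day, and 0 rose and 4 fell at 5 days: Traf2 (-0.40 ± 0.08), Irak2 (-0.50 ± 0.11), Ikbke (-0.74 ± 0.19) and Rnf31 (-0.23 ± 0.07). The Ikbke call was lost without vehicle replicate 2 or 3 (limma adjusted p = 0.0523 and 0.0693), and that of Rnf31 in 5 of 12 fits that left out 1 sample (highest limma adjusted p = 0.104).

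Of 12 other NF-kB factors and inhibitors, in liver 0 of 10 passed at 1 day, and 1 rose and 2 fell at 5 days. Those that fell were Tnip1, the partner of A20 (-0.35 ± 0.06, limma adjusted p = 0.00152), and Bcl3, an atypical IkB protein (-0.50 ± 0.12, limma adjusted p = 0.0114). The deubiquitinase gene Cyld rose by 0.30 ± 0.08, a call lost without vehicle replicate 1 or 3 (limma adjusted p = 0.0605 and 0.0911). In marrow 0 of 11 passed at 1 day and 1 at 5 days. In spleen 2 of 12 rose at 1 day, among them the nuclear inhibitor gene Nfkbiz, and 0 of 12 passed at 5 days. The Nfkbiz call (0.38 ± 0.11, limma adjusted p = 0.0295) was lost in 6 of 8 fits that left out 1 sample. Of all genes 2.67% and 10.6% passed in liver at 1 and 5 days, 7.36% and 10.1% in marrow, and 15.5% and 4.43% in spleen.

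Among 30 known NF-kB target genes, in liver 2 rose and 1 fell of 17 tested at 1 day, and 1 rose and 4 fell at 5 days. Irf1, an interferon regulatory factor gene, fell by 1.16 ± 0.18 at 1 day and 0.93 ± 0.15 at 5 days (limma adjusted p = 0.000949 and 0.000629), and Tnfaip2 fell by 0.95 ± 0.13 at 5 days (limma adjusted p = 0.000233). Gadd45b, a stress response gene, rose by 1.41 ± 0.22 at 1 day. Under the treatments of the source field the differences at 1 day were -0.28 for Gadd45b, 0.37 for Irf1 and -0.60 for Tnfrsf1b. The acute phase genes Lcn2 and Saa3 differed at 5 days by -3.80 ± 0.93 and -3.09 ± 0.81 (limma adjusted p = 0.0136 and 0.0206). The Lcn2 call was lost without vehicle replicate 2 (-3.24, limma adjusted p = 0.0618) and that of Saa3 without vehicle replicate 1 (-2.69, limma adjusted p = 0.0672) or replicate 2 (-2.31, limma adjusted p = 0.0974). In the livers at 5 days 3 of 11 monocyte and macrophage genes (Mpeg1, Cd5l and C1qc) also fell. The mean of that list was 8.14 ± 0.18 log2 in baclofen livers and 8.57 ± 0.23 in vehicle livers (SD, n = 8 and 4), and its part in these falls was not tested. Of all genes 2.67% and 10.6% passed in liver at 1 and 5 days, 7.36% and 10.1% in marrow, and 15.5% and 4.43% in spleen. In marrow 0 rose and 2 fell of 17 targets at 1 day. At 5 days there 1 rose, the adhesion molecule gene Vcam1 (0.43 ± 0.09), and 1 fell. In spleen 1 rose, the activation marker gene Cd83 (0.53 ± 0.13), and 2 fell of 19 at 1 day, and 0 of 19 passed at 5 days (limma). List medians in the 6 comparisons lay between -0.22 and -0.08 for the targets, against -0.03 to 0.00 for all genes. The targets were chosen with earlier results of these data known, and a general fall of targets was not tested. Of 50 calls of named genes on these 4 lists, 28 were lost when some 1 sample was left out.

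Nfkbia is also a known glucocorticoid-induced gene, and 12 such genes were listed beside it for context. Of 11 tested in each tissue, 7 rose and 0 fell in liver at 1 day, 10 rose and 0 fell in liver at 5 days, 7 rose and 1 fell in marrow at 1 day, 10 rose in marrow at 5 days, and 9 and 10 rose in spleen at 1 and 5 days, with 0 falls. Per1, a clock gene, was higher by 2.14 ± 0.22 in marrow at 1 day and 1.45 ± 0.20 in spleen at 1 day, and Sgk1, a kinase gene, by 1.89 ± 0.31 in liver at 1 day. The list's median difference lay between 1.05 and 1.33 in the 6 comparisons. Of all genes 1.58% and 4.86% rose in liver at 1 and 5 days, 3.11% and 6.15% in marrow, and 7.64% and 3.05% in spleen. As the list was chosen with earlier results of these data known, its counts are no test. A part of glucocorticoids in the Nfkbia result was not tested. The liver values at 1 day follow the title and treatment field, which the source field contradicts for 5 of 7 livers.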

How the data were processed

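Per the submitters' processing notes, the arrays were processed with RMA and limma; versions are not given in the sources used here. The deposited values are intensity on a linear scale for 45101 probe sets in 59 arrays, from 5.25 to 43115. RNA was isolated with column kits, and by a bone marrow kit for marrow, per the labels' protocols. Of the probe sets, 64 are controls, 34945 carry 1 gene symbol, 932 several and 9160 none; 34741 of those with 1 symbol matched RefSeq GRCm38.p6.

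The intensity values were taken to log2 here with no further normalization. Each tissue was fitted with limma 3.58.1 (lmFit and eBayes; R 4.3.3) on its 4 groups, and differences between tissues on all 12 groups, with genes bright enough in both tissues. Tests were tried on simulated data first. Identical arrays were not found (0). No batch or date is given, and the number of arrays limits precision.

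The members and lists were chosen with earlier results of these data known. All members are named; from each list up to 4 genes that passed per comparison, by smallest adjusted p (up to 2 by size where none passed), may be named, and the 3 genes most like Nfkbia and Ltb. Alternatives are in the closing section; 1 of them, leaving out samples with transcripts of another tissue, draws on what earlier work on these data saw.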

Additional observations from a re-analysis of the deposited data

Results flagged for a closer look

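In 11 of 99 combinations of member and group, 1 sample lay farther from the rest of its group than Dixon's 95% critical value allows, where chance gives about 5. In liver after baclofen at 1 day these were Nfkbia in replicate 3, with an intensity of 2488 against 2994 to 3025 in the others, and Tnfaip3 in replicate 4, with 29.7 against 27.7 to 27.8. In bone marrow after baclofen at 1 day Nfkbia was 7673 in replicate 3, against 8241 to 8347, and Relb was 98.2 in that replicate, against 122 to 126. That sample also held skeletal muscle transcripts. In marrow after baclofen at 5 days Nfkbib was 509 in replicate 8, against 371 to 416, and Nfkb2 was 458 in replicate 4, against 332 to 390.2. In vehicle marrow at 1 day Nfkbia was 6391 in replicate 2, against 5518.5 to 5574, and Rela was 1407 in replicate 1, against 1196 to 1212. In vehicle marrow at 5 days Tnf was 108 in replicate 2, against 118 to 119. In spleen after baclofen at 5 days Ltb was 4796 in replicate 7, against 5800.3 to 6327, and in vehicle spleen at 5 days Nfkbie was 936 in replicate 2, against 1361 to 1415.

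The response of Rela to baclofen at 5 days differed between liver and spleen by -0.23 on the log2 scale, by a test of the difference itself.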

How the results depend on the processing

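With counts of members that passed as the measure, 417 recomputed counts stayed within 1.5 times the reported one and 41 did not. The cause of those moves was not tested. Most comparisons had a reported count of 0, and a count also stays where another member takes a lost member's place. These totals are therefore no measure of how firm a call is. Under the treatments of the source field, 0 passed in liver at 1 day and 5 directions turned: Nfkbia -0.12, Tnfrsf1b -0.60, Gadd45b -0.28, Bcl2l1 -0.15 and Irf1 0.37. With probe sets of a gene averaged, Nfkbib in spleen at 1 day turned to 0.29 (limma adjusted p = 0.0165), and Ikbkg turned to -0.014 in marrow at 5 days and -0.12 in spleen at 1 day. With the replicate number as a block 0 passed in liver at 1 day, 0 in marrow at 5 days and 0 in spleen at 1 day, and 1, lower in marrow than in spleen, between those tissues at 1 day; it moved no other count by over 1.5 times. Same-numbered samples of a tissue did not deviate together (5 of 23 pairs had r over 0.1, and 4 correlated best with their own number), so the numbers were not taken as pairs. With no brightness filter 2 passed in liver at 5 days (the other being Nfkbie, lower) and 1 in spleen at 1 day. With only the groups compared in the fit 0 passed in spleen at 1 day, 1 in spleen at 5 days and 0 between liver and spleen at 5 days. With the control probe sets as a covariate 0 passed between liver and spleen at 5 days. With array weights 5 passed in marrow at 5 days, 1 between liver and marrow at 1 day, 1 between marrow and spleen at 1 day and 1 between vehicle marrows. A filter at the 60th percentile, quantile normalization and leaving out samples with transcripts of another tissue each gave 1 between marrow and spleen at 1 day; the last gave 1 in spleen at 1 day. With trend and robust options 1 passed in spleen at 5 days.

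When each sample was left out in turn, the counts ranged from 0 to 1 in liver at 1 day, 1 to 2 in liver at 5 days, 2 to 2 in marrow at 1 day, 1 to 3 in marrow at 5 days, 0 to 3 in spleen at 1 day and 0 to 1 in spleen at 5 days. Between tissues they ranged from 0 to 1 for marrow and spleen at 1 day, 0 to 2 for liver and marrow at 5 days and 0 to 2 for liver and spleen at 5 days. Dim probe sets limit what can be said of Nfkbie, Relb, Tnfaip3 and Ltb in liver.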
